A study of Mus musculus with 6 samples.

Results

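The stress response genes described here are 41 listed members of the unfolded protein response and the integrated stress response, measured in primary mouse hepatic stellate cells exposed to obeticholic acid (OCA). They were listed by name as genes of these pathways, with earlier results of these data known, and all 41 were found among the 24940 gene symbols of the exon count table. Of these, 20 belong to the ATF4 branch and 21 to the endoplasmic reticulum (ER) folding branch. All 41 passed the filter on low counts.

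Stellate cells of female C57BL/6JBomTac mice were used 2 days after their isolation. The OCA group received 10 µM OCA, a bile acid derivative and agonist of the nuclear receptor FXR. The DMSO group, the control, received the vehicle dimethyl sulfoxide in equal volume. Each exposure lasted 6 hours in the medium already on the cells, and each group has 3 libraries (A, B and C). The labels give neither the age of the mice nor whether libraries came from different animals or dishes. The p-values therefore weigh differences against the variation among these libraries alone, which could be purely technical.

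Proteins that enter the secretory pathway fold in the ER, and 3 membrane sensors respond when folding falls behind. ATF6 is cut into a transcription factor and IRE1 splices the Xbp1 mRNA, and together they raise ER chaperones and the machinery that degrades misfolded proteins. PERK phosphorylates the initiation factor eIF2alpha, as do related kinases that sense amino acid shortage, heme shortage or viral RNA. That slows translation in general but favours that of ATF4, which then raises genes for amino acid supply, redox balance and, through CHOP, cell death. Activated stellate cells secrete large amounts of collagen, a heavy load for this folding machinery. Gene counts do not show ATF4 translation, Xbp1 splicing or ATF6 cleavage, so only the transcript levels of the regulators and their targets can be read here.

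Column totals ranged from 12260882 to 16336240 counts. The 12 stellate cell markers together had 4105 to 5111 CPM (counts scaled to library size) in every library, with Col1a1 and Vim the most abundant. Of these 12, edgeR called Lhx2 higher and Reln and Rgs5 lower. Of 18 alternative fits, Reln and Rgs5 were each called in 12 and Lhx2 in 9, none of the 3 with the offsets described below and Reln not by DESeq2. The part of these markers in the results below was not tested. The summed levels of 10 hepatocyte markers were 2.72 to 4.32 CPM with vehicle and 3.03 to 6.15 CPM with OCA, and of 10 macrophage markers 6.36 to 13.6 and 8.59 to 8.95 CPM. Those of 10 endothelial markers were 7.73 to 9.92 and 8.32 to 12.3 CPM, and of 6 cholangiocyte markers 5.50 to 7.70 and 4.80 to 6.16 CPM. Those of 6 mesothelial markers were 0.724 to 1.82 and 1.13 to 1.57 CPM. Of the listed markers, Tat, Krt7, Gpm6a and 4 of 7 lymphocyte genes had no count in any library, while others of these lists had counts. Among the latter were Alb (mean 2.07 CPM with vehicle and 2.30 CPM with OCA), Spp1 (5.74 and 4.16 CPM) and Wt1 (1.07 and 1.10 CPM). In such bulk samples fewer expressing cells and less RNA per cell cannot be told apart.

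Both branches have known DNA elements, and these sequences show how they appear in front of the listed genes. Promoter windows of 300 bases (250 before the start site and 50 after, RefSeq, build GRCm38.p6) were found for 35 of the 41 genes. Slc7a5, Eif4ebp1, Manf, Hyou1, Sil1 and Atf6 had no window. The ER stress response element (ERSE, the letters CCAAT and CCACG with any 9 bases between them), which binds NF-Y and ATF6 or XBP1, was searched on both strands. It was present in 8 of 17 ER folding windows and in 0 of 18 ATF4 branch windows, against 0.162% of 9867 windows of tested genes. The sites follow with 20 bases on each side and the element in capitals, written along the gene's strand. Positions count from the start site as 0, and Hsp90b1 has a site in each orientation.

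Hspa5 (chr2:34772005-34772063, plus strand, element from -65 to -47): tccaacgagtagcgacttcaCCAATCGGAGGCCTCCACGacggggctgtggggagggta
Hsp90b1, distal (chr10:86705618-86705676, minus strand, element from -212 to -194): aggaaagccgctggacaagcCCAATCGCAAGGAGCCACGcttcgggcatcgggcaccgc
Hsp90b1, proximal (chr10:86705513-86705571, minus strand, element from -107 to -89, reversed): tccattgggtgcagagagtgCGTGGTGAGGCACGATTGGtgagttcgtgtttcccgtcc
Pdia6 (chr12:17266471-17266529, plus strand, element from -98 to -80): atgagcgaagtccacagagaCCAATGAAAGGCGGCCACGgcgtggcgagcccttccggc
Calr (chr8:84847055-84847113, minus strand, element from -162 to -144, reversed): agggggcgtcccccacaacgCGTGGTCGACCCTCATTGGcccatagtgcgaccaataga
Canx (chr11:50325780-50325838, minus strand, element from -145 to -127): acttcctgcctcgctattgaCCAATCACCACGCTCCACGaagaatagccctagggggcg
Dnajc3 (chr14:118937807-118937865, plus strand, element from -105 to -87): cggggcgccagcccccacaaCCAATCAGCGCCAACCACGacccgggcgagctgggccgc
Creld2 (chr15:88819500-88819558, plus strand, element from -126 to -108, reversed): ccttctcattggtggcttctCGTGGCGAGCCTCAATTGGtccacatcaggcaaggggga
Syvn1 (chr19:6046512-6046570, plus strand, element from -44 to -26): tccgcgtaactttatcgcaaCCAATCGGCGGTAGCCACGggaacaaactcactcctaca

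The shorter ERSE-II (ATTGG and CCACG with 1 base between them) was found in 2 further ER folding genes, Herpud1 and Dnajb11, against 0.0709% of the windows of tested genes. The 8 letters TGATGNAA, the core of the element bound by ATF4 with C/EBP partners, were found in 4 of 18 ATF4 branch windows (Trib3, Chac1, Asns and Nupr1) and in that of Herpud1, against 2.09% of the windows of tested genes. The element TGACGTGG, a core read by XBP1 and ATF6, was in none of the 35 windows and in 0.902% of the windows of tested genes. Below are the Herpud1 ERSE-II, with which this gene holds elements of both kinds, and 3 of the ATF4 cores.

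Herpud1, ERSE-II (chr8:94386357-94386407, plus strand, element from -52 to -42): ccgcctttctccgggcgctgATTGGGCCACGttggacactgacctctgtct
Herpud1, ATF4 core (chr8:94386297-94386344, plus strand, element from -112 to -105, reversed): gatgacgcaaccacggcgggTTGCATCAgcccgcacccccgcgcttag
Asns (chr6:7693210-7693252, minus strand, element from -23 to -16): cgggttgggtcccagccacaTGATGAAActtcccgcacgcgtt
Chac1 (chr2:119351029-119351076, plus strand, element from -193 to -186, reversed): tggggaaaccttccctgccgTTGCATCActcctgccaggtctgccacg

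Of the 41 genes, 1 rose under OCA, none fell and 40 did not pass the test. The gene that rose was Mthfd2, a mitochondrial enzyme of the folate cycle. Over all 12687 genes tested, 5.2% were called, 2.18% as higher and 3.03% as lower, by the quasi-likelihood test of edgeR, adjusted by Benjamini-Hochberg at 0.05. An unadjusted p under 0.05 was reached by 8 of the 41, against 19.0% of all genes. All 3 OCA libraries lay above all 3 DMSO libraries in 9 of the 41 genes, against 11.6% of all genes, and below them in 5, against 11.3%. The changes were small in both branches, as they were over all genes tested. Without regard to sign, the median log2 fold change was 0.110 in the ATF4 branch and 0.0927 in the ER folding branch, against 0.120 over all genes. The 95% intervals, which are not adjusted for the number of genes, ran from 0.794-fold to 1.24-fold over the 21 ER folding genes and from 0.740-fold to 1.59-fold over the 20 ATF4 branch genes.

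**Figure D1:**
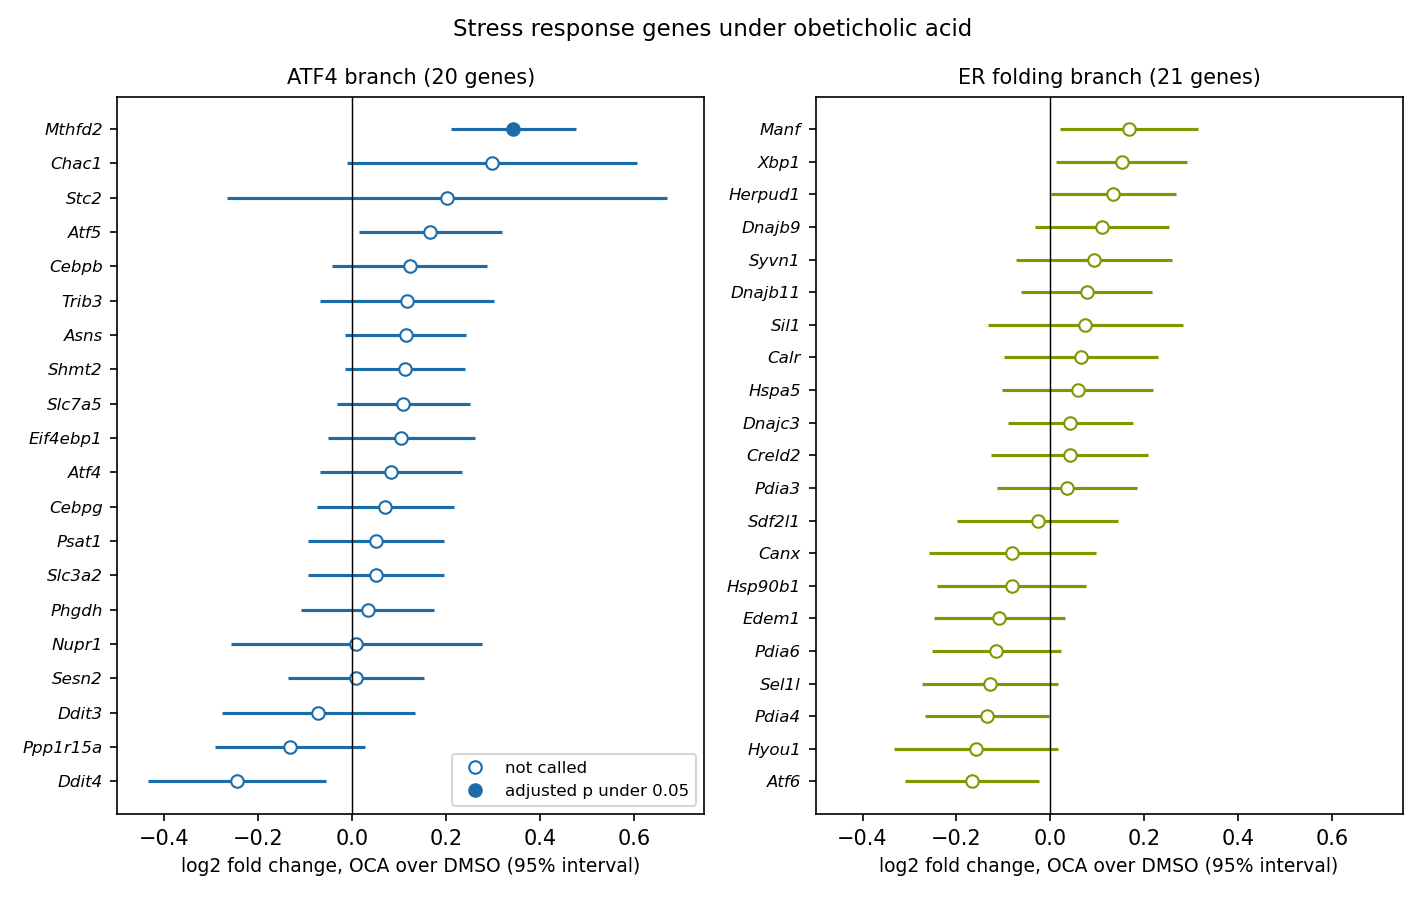
Log2 fold change of OCA over DMSO (points) with its 95% interval (lines) for the 20 ATF4 branch genes and the 21 ER folding genes, ordered by size, from edgeR's fit to 3 libraries per group. The filled point, Mthfd2 at 0.34, is the only gene with an adjusted p under 0.05.

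Within the ATF4 branch, 17 of 20 genes had a log2 fold change above 0, against 50.2% of all genes tested, and 3 below 0, against 49.8%. Its median was 0.09, against 0.00 for all genes. With offsets that remove a trend on transcript length and counts per base from each library, an alternative described below, 10 of 20 were above 0 and the median was 0.01. So the lean of this branch above 0 was not present with those offsets.

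Atf4, the transcription factor at the head of the branch (NM_009716, mm10 chromosome 15, 80255184 to 80257545, plus strand), had 178, 204 and 197 CPM in the DMSO libraries A, B and C. It had 189, 205 and 219 CPM in the OCA libraries, and the groups overlapped. The fold change was 1.06, with a 95% interval of 0.954 to 1.18 (adjusted p = 0.576, edgeR). With the offsets its log2 fold change turned from 0.08 to -0.01.

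Ddit3 encodes CHOP, the ATF4 target tied to cell death under lasting stress (NM_007837, chromosome 10, 127290793 to 127296288, plus strand). Its levels were 45.0, 44.5 and 55.5 CPM with vehicle and 41.4, 47.5 and 49.1 CPM with OCA, so the groups overlapped, with DMSO C the highest library. Its 3' end overlaps that of Mars on the other strand. The annotated spans of Atf5, Ppp1r15a and Syvn1 also overlap a gene on the opposite strand (Nup62, Tulp2 and Mrpl49), and without a stated strand setting such reads cannot be told apart. Its fold change was 0.952 (95% interval 0.825 to 1.10). Atf5, a relative of ATF4 that is itself under translational control, had 279 ± 23.5 CPM with vehicle and 313 ± 12.7 CPM with OCA (SD, n = 3 each; adjusted p = 0.218, edgeR). The C/EBP partners of ATF4 and CHOP, Cebpb and Cebpg, had log2 fold changes of 0.12 and 0.07, and neither passed the test.

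The gene that rose, Mthfd2 (NM_008638, chromosome 6, 83305704 to 83317604, minus strand), had 98.5, 95.5 and 103 CPM in the DMSO libraries. In the OCA libraries it had 125, 126 and 126 CPM, all above every DMSO library. The fold change was 1.27 (95% interval 1.16 to 1.39; log2 fold change 0.34, SE 0.06, adjusted p = 0.0029, edgeR). It was called in each fit that left out 1 library, with adjusted p between 0.00225 and 0.0238, and with the offsets, where the log2 fold change was 0.28.

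The 250 bases before its start site, shown because it is the member that rose, hold none of the 4 searched elements on either strand.

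Mthfd2 (chr6:83317605-83317854, minus strand): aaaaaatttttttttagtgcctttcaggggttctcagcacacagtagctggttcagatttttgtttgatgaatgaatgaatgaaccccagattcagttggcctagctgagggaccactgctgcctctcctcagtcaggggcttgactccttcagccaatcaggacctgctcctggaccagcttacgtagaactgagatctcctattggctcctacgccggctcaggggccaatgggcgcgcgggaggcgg

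Mthfd2 works in the mitochondria next to Shmt2, which splits serine to feed the folate cycle. Shmt2 had 165 ± 2.44 CPM with vehicle and 178 ± 3.69 CPM with OCA (adjusted p = 0.337, edgeR), with all OCA libraries above all DMSO libraries. The enzymes that make serine, Phgdh and Psat1, had fold changes of 1.02 and 1.04, with upper interval bounds of 1.13 and 1.14. Asns, which makes asparagine and holds the ATF4 core shown above, had 189, 187 and 188 CPM with vehicle and 202, 198 and 210 CPM with OCA. The OCA libraries all lay above the DMSO libraries, but the fold change of 1.08 did not pass the test (adjusted p = 0.33, edgeR). The heterodimer that imports large neutral amino acids, Slc7a5 with Slc3a2, had fold changes of 1.08 and 1.04.

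Aldh1l2, which is no member but acts in the same mitochondrial folate pathway by oxidising formyl-tetrahydrofolate, fell from 21.3 ± 1.496 to 14.5 ± 1.92 CPM (-0.56 on the log2 scale, SE 0.14, adjusted p = 0.0215, edgeR). It was no longer called when A or C of either group was left out, or with the offsets. Mthfd1l, the next mitochondrial enzyme after MTHFD2, and Psph, the last step of serine synthesis, were named after their values were seen. They had log2 fold changes of 0.01 and 0.12 and did not pass the test.

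The members that restrain the response or growth included the lowest value of the branch. Ddit4, an inhibitor of mTORC1 (NM_029083, chromosome 10, 59949675 to 59951770, minus strand), had 49.3, 58.6 and 58.5 CPM with vehicle and 42.7, 48.9 and 48.7 CPM with OCA. The groups did not overlap, though DMSO A lay within 1 CPM of OCA B. The fold change was 0.843 (95% interval 0.740 to 0.962), and with an adjusted p of 0.133 by edgeR it was not called. Without OCA B and DMSO A, an alternative added after seeing the data, it was called lower (log2 fold change -0.36, adjusted p = 0.00723, edgeR). For Ddit4, OCA B was the highest OCA library and DMSO A the lowest DMSO library. Leaving both out therefore widens its gap by construction, and the call is no separate evidence of a fall.

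Ppp1r15a encodes GADD34, which takes the phosphate off eIF2alpha again. It had 75.5 ± 1.80 CPM with vehicle and 68.8 ± 5.85 CPM with OCA, a fold change of 0.912 (95% interval 0.817 to 1.02). The pseudokinase gene Trib3, which damps ATF4 and AKT signalling, had 45.4 ± 4.47 and 49.2 ± 2.06 CPM. Sesn2, another brake on mTORC1, had 98.9 ± 3.61 and 99.4 ± 6.02 CPM, and Eif4ebp1, a translation repressor, had a log2 fold change of 0.10. The chromatin-associated stress protein gene Nupr1 had 20.4 ± 1.301 and 20.5 ± 2.74 CPM. None of these passed the test.

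Chac1, which breaks down glutathione and is among the strongest ATF4 and CHOP targets, had 17.2, 15.6 and 17.7 CPM with vehicle and 25.7, 16.9 and 19.7 CPM with OCA. One library, OCA A, stood above the other 5, and OCA B lay below DMSO A and C. The fold change of 1.23 had an interval of 0.993 to 1.52 and did not pass the test. Stc2, a secreted glycoprotein hormone gene, was the sparsest member with 6.07 ± 0.852 CPM with vehicle and 6.95 ± 1.04 CPM with OCA. Its interval, 0.831 to 1.59, was the widest of the 41.

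**Figure D2:**
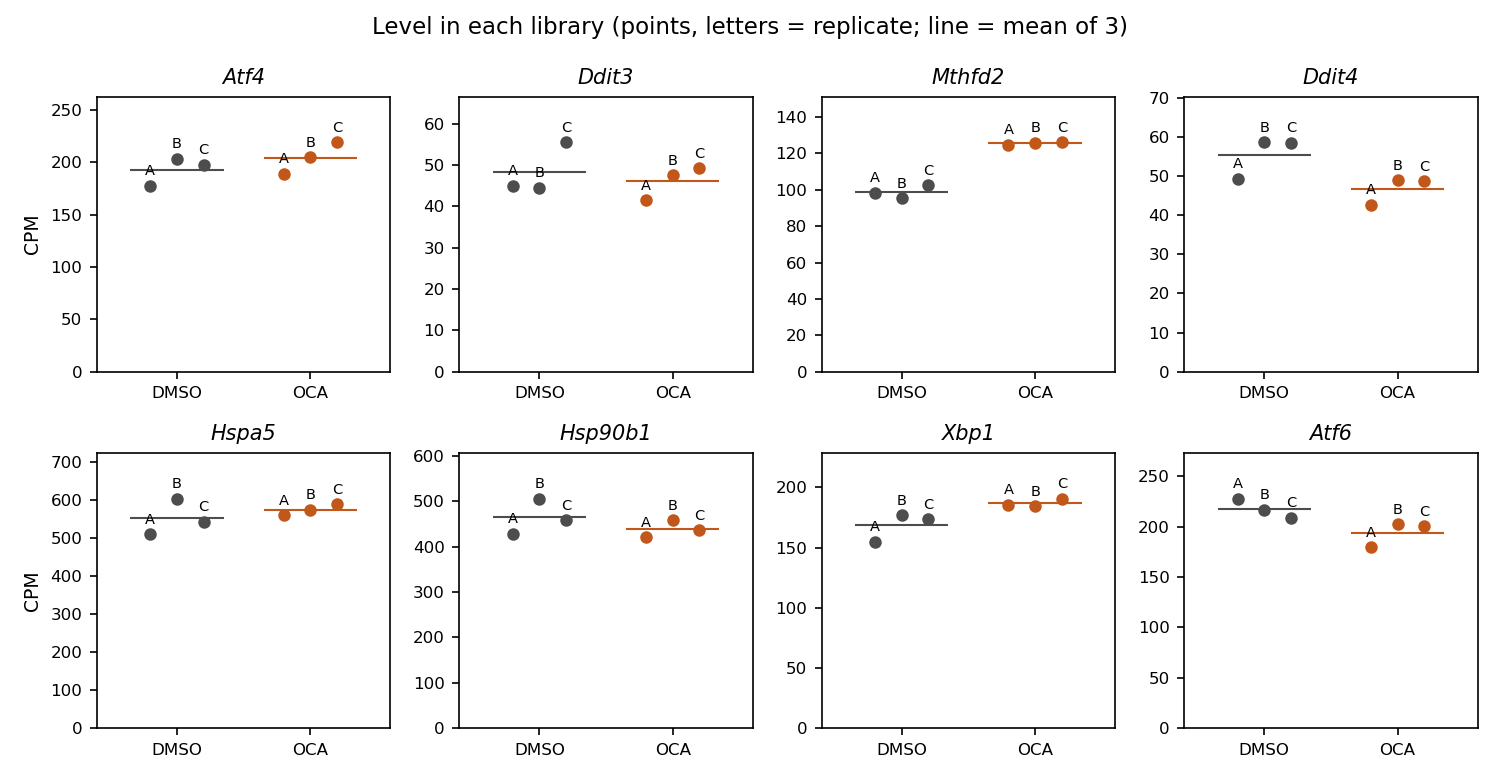
CPM of 8 genes in each of the 3 DMSO and 3 OCA libraries (points, with the replicate letter) and the group mean (line), with axes from 0. The OCA points of Mthfd2 lie between 125 and 126 CPM, above all DMSO points, while those of Atf4, Ddit3, Hspa5 and Hsp90b1 overlap the DMSO points.

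In the ER folding branch, 12 of 21 genes had a log2 fold change above 0 and 9 below, with a median of 0.04, against 50.2% and 49.8% of all genes tested. None was called by edgeR, DESeq2 or limma-voom. In edgeR's fit 5 had an unadjusted p under 0.05, 3 of them higher and 2 lower, against 19.0% of all genes. All OCA libraries lay above all DMSO libraries in 5 genes, against 11.6% of all genes, and below them in 4, against 11.3%.

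Xbp1, the target of IRE1 (NM_013842, chromosome 11, 5520641 to 5525993, plus strand), had 155, 177 and 173 CPM with vehicle and 186, 184 and 191 CPM with OCA. All OCA libraries were above all DMSO libraries, with DMSO A the lowest. The fold change was 1.11 (95% interval 1.01 to 1.22, adjusted p = 0.218, edgeR). Atf6, the sensor that becomes a transcription factor (NM_001081304, chromosome 1, 170704457 to 170867771, minus strand), had 228, 217 and 209 CPM with vehicle and 179, 202 and 201 CPM with OCA. Here all OCA libraries were below all DMSO libraries, and OCA A was the lowest. Its fold change was 0.891 (95% interval 0.807 to 0.983, adjusted p = 0.182, edgeR), so neither regulator passed the test.

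Hspa5 encodes BiP, the main ER chaperone, which holds the sensors inactive (NM_022310, chromosome 2, 34772090 to 34776529, plus strand). It had 509, 603 and 542 CPM with vehicle and 559, 574 and 588 CPM with OCA. The highest and the lowest library were both vehicle libraries, DMSO B and DMSO A. The fold change was 1.04 (95% interval 0.931 to 1.16, adjusted p = 0.727, edgeR). Hsp90b1, the ER form of HSP90, had 429, 506 and 459 CPM with vehicle and 421, 459 and 436 CPM with OCA, and again DMSO B was the highest. Its fold change was 0.944 (95% interval 0.846 to 1.05). Hyou1, a large chaperone that helps BiP exchange nucleotide, had 349, 334 and 298 CPM with vehicle and 273, 333 and 272 CPM with OCA. It was called lower without OCA B (log2 fold change -0.26, adjusted p = 0.048, edgeR) and in no other fit. For Hyou1, OCA B was the highest OCA library, so leaving it out widens the gap by construction. The same fit called 758 of all genes lower, against 384 with all libraries. The Hyou1 call is therefore no separate evidence of a fall. Sil1, a nucleotide exchange factor of BiP, had a fold change of 1.05.

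The J-domain partners of BiP among the members lay slightly above 0. Further partners from the other lists, Dnajc10, Sec63 and Dnajc1, were named after their values were seen. They lay below 0, at log2 fold changes of -0.09, -0.05 and -0.03, and were not called. Dnajb9, a typical XBP1 target, had 81.4 ± 3.16 CPM with vehicle and 87.7 ± 2.10 CPM with OCA, with all OCA libraries above all DMSO libraries (adjusted p = 0.404, edgeR). Dnajb11 and Dnajc3 had fold changes of 1.06 and 1.03. Of the small secreted or lumenal proteins that follow ER stress closely, Manf had 124 ± 10.5 and 139 ± 2.88 CPM, a fold change of 1.12 (95% interval 1.01 to 1.24, adjusted p = 0.197, edgeR). Sdf2l1 and Creld2 had fold changes of 0.982 and 1.03.

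The disulfide isomerases had values on both sides of 0. Pdia4 had 203, 220 and 213 CPM with vehicle and 191, 198 and 190 CPM with OCA, so all OCA libraries were below all DMSO libraries (fold change 0.911, 95% interval 0.831 to 0.998, adjusted p = 0.254, edgeR). Pdia6 had 184, 197 and 194 CPM with vehicle and 167, 187 and 177 CPM with OCA, with OCA B above DMSO A. Pdia3, which works with the lectin chaperones, had 343 ± 27.5 and 352 ± 1.12 CPM. The lectin chaperones Calr (431 ± 46.7 and 451 ± 9.51 CPM) and Canx (711 ± 63.7 and 673 ± 58.6 CPM), which retain glycoproteins until folded, overlapped between groups.

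Among genes for ER-associated degradation, Herpud1 had 103 ± 2.38 CPM with vehicle and 113 ± 1.61 CPM with OCA (fold change 1.10, 95% interval 1.00 to 1.204, adjusted p = 0.26, edgeR), with non-overlapping groups. The ubiquitin ligase gene Syvn1 had 48.8 ± 0.367 and 52.1 ± 2.85 CPM. Its adaptor Sel1l and the mannose-trimming Edem1 had fold changes of 0.915 and 0.927, and in both the OCA group was wholly under the DMSO group. None passed the test. The 8 genes with an ERSE in their promoter window had log2 fold changes with a median of 0.04. Of them 0 were called by edgeR, DESeq2 or limma-voom. The 16 tested genes with that element, which include these 8, also had 0 calls by edgeR, against 5.2% of all genes tested. Sets of this size are too small to tell 0 calls from that share. With the length and density offsets the median of the 8 turned to -0.04, and 2 of them, Hsp90b1 and Pdia6, were called lower.

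The members are unevenly abundant for their length. Per length, in TPM (here counts per kilobase scaled to the same sum in each library), the highest DMSO levels were those of Calr (620 ± 45.1 TPM) and Hspa5 (588 ± 29.2 TPM), which differed by less than their spread. Hsp90b1 (471 ± 22.1 TPM) and Canx (463 ± 29.1 TPM) followed, again within their spread. In the ATF4 branch Atf5 (428 ± 21.2 TPM) and Eif4ebp1 (347 ± 18.4 TPM) were highest. Chac1 (30.0 ± 2.81 TPM) and Stc2 (9.45 ± 1.15 TPM) were lowest.

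Dense coverage went together with a smaller response of counts to sequencing depth, also between libraries of the same treatment. The total of DMSO A was 1.33 times that of DMSO B. Over all tested genes, summed counts in DMSO A were 1.54 times those in DMSO B in the eighth of genes with the fewest counts per base, and 1.22 times in the eighth with the most (from 0.855 counts per base). That densest eighth held 18 of the 41 members. Calr (3.13 counts per base, mean of the 6 libraries) had 1.13 times and Hspa5 (2.97) 1.17 times as many counts in DMSO A as in DMSO B, while Sel1l (0.587) had 1.51 times and Chac1 (0.166) 1.52 times. Of the 16 members with at least 1 count per base, 13 had a ratio under that of the totals, and of the 25 others 8 had. DMSO B, the shallowest library, was the highest of the 6 in 8 of the 21 ER folding genes and in 2 of the 20 ATF4 branch genes. DMSO A, the deepest, was the lowest in 6 of the 21 ER folding genes and in 9 of the 20 ATF4 branch genes. The shares over all genes were not counted.

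**Figure D3:**
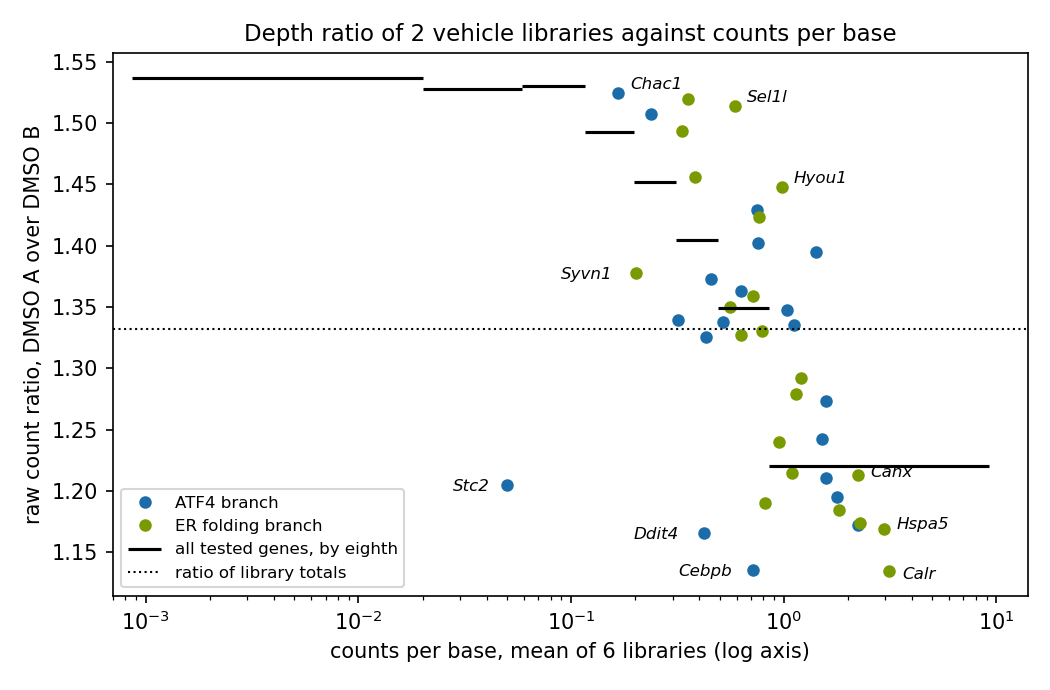
Raw counts in DMSO A divided by those in DMSO B (y axis) against counts per base (x axis, log scale) for the 41 genes, with the ratio of summed counts in each eighth of all tested genes (black lines) and the ratio of the library totals, 1.33 (dotted line). The ratio of the lines drops from 1.54 to 1.22 with density, and Calr and Hspa5 lie at 1.13 and 1.17.

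The totals of the OCA libraries, 12829226 to 13234570 counts, lay above that of DMSO B (12260882). They lay below those of DMSO C (15104035.5) and DMSO A (16336240). The part of this difference in depth in the trends below was not tested. The median log2 fold change of all tested genes was -0.11 in the sparsest eighth and 0.09 in the densest. By transcript length it was 0.10 in the shortest eighth and -0.14 in the longest. The 9 ER folding genes below 0 had a median length of 4272 bases and the 12 above 0 one of 2096 bases. In the ATF4 branch the order was the other way, with 1680 bases for the 3 genes below 0 and 1913 bases for the 17 above 0. Atf6 (7445 bases), Sel1l (6277 bases) and Edem1 (5844 bases) were in the longest eighth.

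The comparison was also made with offsets from a curve on length and counts per base fitted in each library. Of all 12687 genes tested, that fit called 342 higher and 248 lower. Mthfd2 remained higher, and 3 dense ER folding genes were now called lower. They were Hsp90b1 (log2 fold change -0.16, SE 0.04, adjusted p = 0.0231), Pdia4 (-0.20, SE 0.04, adjusted p = 0.0136) and Pdia6 (-0.19, SE 0.05, adjusted p = 0.0375), all by edgeR. All 3 were below 0 with TMM scaling alone too, at -0.08, -0.13 and -0.11. The offsets changed the sign of 11 of the 41 genes, none of them called. Hspa5 went from 0.06 to -0.03 and Calr from 0.06 to -0.04, whereas Atf6 moved from -0.17 to -0.07. The ER folding branch had 8 of 21 genes above 0 and a median of -0.04 with the offsets.

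**Figure D4:**
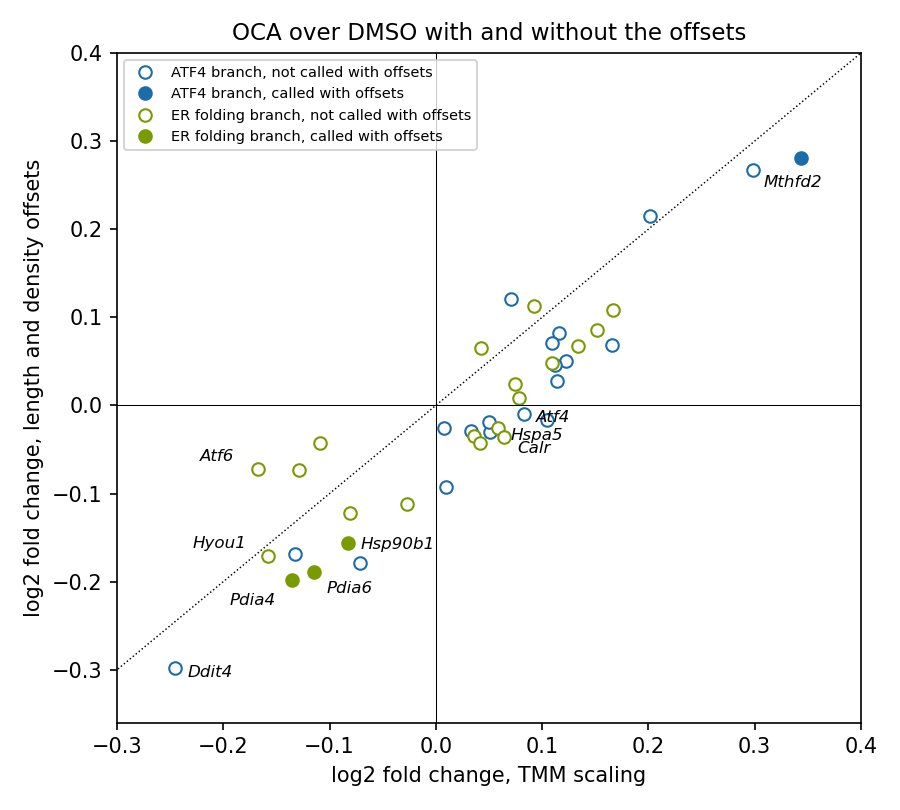
Log2 fold change of OCA over DMSO with TMM scaling (x axis) and with offsets for length and counts per base (y axis) for the 41 genes, with the line of equality dotted. Filled points have an adjusted p under 0.05 with the offsets and are Mthfd2 above 0 and Hsp90b1, Pdia4 and Pdia6 below 0.

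The other genes of the pathway were taken from lists of regulators, targets and folding genes. Of 21 tested sensors, eIF2alpha kinases, phosphatase subunits and related regulators, 2 rose and 2 fell, against 2.18% and 3.03% of all genes tested, and the median log2 fold change was 0.05. Creb3l1, an ATF6-like membrane-bound transcription factor known to raise collagen genes, rose from 231 ± 11.4 to 294 ± 16.7 CPM (0.35 on the log2 scale, SE 0.07, adjusted p = 0.00453, edgeR) and was called in every alternative fit. The collagen genes among the stellate cell markers, Col1a1 and Col3a1, had log2 fold changes of -0.24 and -0.35 and did not pass the test. Eif2b4, a subunit of the exchange factor that eIF2alpha phosphorylation blocks, rose from 68.8 ± 4.09 to 86.1 ± 4.63 CPM. Ern1, which encodes the sensor IRE1, fell from 60.8 ± 5.63 to 45.6 ± 7.26 CPM (-0.42 on the log2 scale, SE 0.10, adjusted p = 0.0231, edgeR). Ppp1r15b, the constitutive partner of the eIF2alpha phosphatase, fell from 195 ± 11.4 to 158 ± 17.9 CPM. The calls of Eif2b4, Ern1 and Ppp1r15b each failed when A or C of OCA, or A or B of DMSO, was left out.

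Of 38 other tested ATF4 and CHOP targets, 3 rose and 2 fell, against 2.18% and 3.03% of all genes tested. Their median log2 fold change was 0.13, against 0.00. Of the 38, 28 were above 0, against 50.2% of all genes, and 19 had an unadjusted p under 0.05, against 19.0%. These 19 lay on both sides of 0. With the length and density offsets 3 of the list were called higher and 1 lower, against 342 and 248 of all 12687 genes tested. How many of the 38 were above 0 with those offsets was not counted. Jdp2, an AP-1 and ATF family repressor, rose from 51.8 ± 1.68 to 69.1 ± 3.39 CPM (0.42 on the log2 scale, SE 0.08, adjusted p = 0.00247, edgeR), a call kept in every alternative fit. The neutral amino acid transporter gene Slc1a4 rose from 45.4 ± 1.48 to 56.7 ± 3.24 CPM, and of the fits without 1 library it was called only in that without OCA B. The gene of the pro-apoptotic protein BIM, Bcl2l11, had 12.6, 13.004 and 13.96 CPM with vehicle and 29.0, 20.3 and 16.6 CPM with OCA. It rose with an adjusted p of 0.0153 by edgeR, and was not called when OCA A, or A or B of DMSO, was left out. The fallers were Aldh1l2, given above, and the death receptor gene Tnfrsf10b, named after its values were seen. The latter fell from 71.9 ± 4.44 to 51.1 ± 14.2 CPM, and its groups overlapped through OCA B at 67.2 CPM. It was not called with robust estimation, with the offsets or in 5 of the 6 fits without 1 library.

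Of 46 other tested ER folding, translocation and degradation genes, 1 fell and none rose, against 3.03% and 2.18% of all genes tested, with a median of 0.05. It was Uggt1, the glucosyltransferase that checks glycoprotein folding, with 226, 204 and 199 CPM with vehicle and 148, 188 and 151 CPM with OCA (log2 fold change -0.37, SE 0.08, adjusted p = 0.0128, edgeR). All OCA libraries were below all DMSO libraries, but it failed the test when A or C of OCA, or DMSO A, was left out. Without OCA B and DMSO A the same list had 3 lower genes, against 605 of all 12733 genes tested in that fit. Chaperones of other compartments gave no call, in lists too short to tell this from the 5.2% called over all genes. Of 16 cytosolic heat shock genes, 0 were called by edgeR, DESeq2 or limma-voom. An unadjusted p under 0.05 was reached by 2 of the 16 in edgeR's fit, against 19.0% of all genes. The most abundant, Hsp90ab1 and Hsp90aa1, had log2 fold changes of 0.12 and 0.04. Of 11 mitochondrial folding and protease genes, 0 were called by those tools and 0 had an unadjusted p under 0.05, against the same 19.0%. Hspa9 and Hspd1, the most abundant, had log2 fold changes of 0.04 and 0.05.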

How the data were processed

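RNA sequencing counts of 6 libraries, 3 with OCA and 3 with DMSO, were analysed. The authors deposited unadjusted exon counts per gene in steps of 0.5, per the file headers and name, which were handled like expected counts and rounded to whole numbers for count tests. The tools were STAR and HOMER and the build mm10, per the submitters' processing notes. Tool versions, strand setting and duplicate handling were not given in the sources used here. Columns were assigned by the sample title they carry, and 0 count columns were left out.

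All genes were fitted in R 4.3.3 by edgeR 4.0.16, using filterByExpr, TMM factors and the quasi-likelihood test, two-sided, without a replicate block. The 12687 genes tested were adjusted by Benjamini-Hochberg at 0.05. The standard error is the log2 fold change divided by the square root of F, and intervals use the moderated degrees of freedom. CPM are deposited counts on TMM-scaled totals. Alternatives were DESeq2 1.42.0, limma-voom (limma 3.58.1), other scalings and filters, a replicate block, robust estimation, unrounded counts, loess offsets (span 0.5) and leaving out each library. The fit was tested on simulated data. It recovered 58% of 50 genes changed 1.3-fold and 92% of 50 changed 1.5-fold, and called 12 unchanged genes. Smaller changes were not simulated.

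Members and lists were chosen with earlier results of these data known. The naming rule takes all members. From each further list it takes up to 4 called genes with the smallest p or, if none, the 2 most abundant. Same-numbered libraries shared only a letter. No library pair within a group was alike to within counting noise (chi-square per degree of freedom from 4.41 to 8.05).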

Additional observations from a re-analysis of the deposited data

How the results depend on the processing

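Across the alternatives the ATF4 branch kept its 1 higher gene, Mthfd2. The exceptions for members concerned other genes. The length and density offsets gave 3 lower ER folding genes, and leaving out 1 library at a time gave 0 to 1. That 1 was Hyou1 without OCA B, its highest OCA library. Leaving out OCA B and DMSO A together, added after seeing the data, gave 1 lower ATF4 branch gene, Ddit4. For Ddit4 those were the highest OCA and the lowest DMSO library. The cause of these exceptions was not tested. Among single members under 18 alternatives, 705 values kept direction and call, 5 gained a call and 28 changed sign, none of them called. Over all genes, leaving out 1 library gave 161 to 363 higher and 104 to 758 lower genes, the values without OCA A and without OCA B for higher, and without OCA A or DMSO A and without OCA B for lower. Lower genes numbered 703 with no filter, 248 with the offsets and 605 without OCA B and DMSO A, against 384. The offsets moved the share of higher among called genes from 41.8% to 58%, and it was 32% with no filter.

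The replicate block gave 306 higher and 508 lower genes and called no other member. Same-lettered libraries did not deviate together (r = 0.00051 for A, -0.0433 for B and 0.0535 for C), and OCA A correlated best with DMSO B (r = 0.0147). Stc2 and Chac1 had the fewest counts of the members and the largest SE, 0.22 and 0.15, and the part of depth in this was not tested.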

Other observations

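The listed tRNA synthetase genes, which charge amino acids onto tRNAs and are textbook ATF4 targets, were singled out after their values were seen. They belong to the 38 other ATF4 and CHOP targets described above, so their values are part of that list's and no separate observation. All 12 had a log2 fold change above 0 (0.05 to 0.17, median 0.14), as had 50.2% of all genes tested. In 6 of the 12 all OCA libraries lay above all DMSO libraries, against 11.6% of all genes. By edgeR 0 passed the test over all genes and 4 had an unadjusted p under 0.05, against 19.0% of all genes. Mars, for methionine, whose span overlaps that of Ddit3, measured 236 ± 4.62 CPM with vehicle and 265 ± 14.2 CPM with OCA (log2 fold change 0.17, SE 0.07, adjusted p = 0.161, edgeR). Yars, for tyrosine, had 220 ± 9.60 and 245 ± 8.22 CPM (adjusted p = 0.191, edgeR). With the length and density offsets 11 of the 12 were above 0, with a median of 0.07, and 0 were called.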
